A study of Homo sapiens with 12 samples.

Results

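The genes of the ATF4 amino acid stress response were examined in Huh7 cells with and without silencing of the TRPC1 channel. The set held 10 genes, ATF4, ATF3, DDIT3, TRIB3, ASNS, CHAC1, SESN2, DDIT4, PSAT1 and PHGDH, with every probe that the platform annotation assigns to them. The genes were chosen by name, with earlier results of these data known, so their counts below are descriptions only. They had 16 of the 48803 probes on the array, and 13 of these, at least 1 for each gene, were among the 12902 probes bright enough to be tested.

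Huh7, a long-established cell line derived from hepatocellular carcinoma, was transfected with 2 µg of a vector expressing the TRPC1 silencing sequence (siTRPC1, 6 arrays) or with the empty vector (control, 6 arrays). Both groups received 6 µl of FugeneHD, and RNA was isolated after 48 h. All cells were kept in DMEM with 10% foetal bovine serum, 2 mM glutamine and 0.1 mM non-essential amino acids, and no amino acid starvation is part of the design. The vector, pSUPERIOR.retro.neo+gfp, also expresses GFP, by which transfection was judged, and no sorting of transfected cells is stated. Each array holds bulk RNA of a transfected culture, in which a change of RNA per cell and a change in the share of responding cells cannot be told apart. The labels do not say whether the 6 arrays of a group came from separate transfections, so the p-values measure the spread between arrays, which may be technical.

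ATF4 is a basic leucine zipper transcription factor of the integrated stress response. When a kinase that senses lack of amino acids, endoplasmic reticulum stress, haem deficiency or double-stranded RNA phosphorylates eIF2α, most translation falls while the ATF4 mRNA is translated more, and ATF4 then activates genes for amino acid synthesis, uptake and tRNA charging. An array measures RNA and not protein, so the arrays report on ATF4 activity only through its own mRNA and those of its targets. In liver-derived cells the same programme links amino acid supply to growth.

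ATF4 binds DNA as a dimer with C/EBP proteins and related factors at a composite element of which TGATGNAA is the core. RefSeq promoter windows of GRCh38.p14, from 250 bases before to 50 after each annotated start, were found for all 10 genes (16 windows) and searched on both strands. The core was present in 3 of the 10 genes, ATF3, ASNS and CHAC1, and in 4.46% of all 27305 genes with a window. The stretch before the start is shown for these 3, in the direction of the gene, because they hold the core, which is in capitals.
ATF3: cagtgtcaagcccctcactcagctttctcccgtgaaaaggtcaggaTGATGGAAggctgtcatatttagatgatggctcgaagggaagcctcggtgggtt
ASNS: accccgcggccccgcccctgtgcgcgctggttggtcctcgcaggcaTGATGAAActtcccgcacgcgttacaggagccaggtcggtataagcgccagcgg
CHAC1: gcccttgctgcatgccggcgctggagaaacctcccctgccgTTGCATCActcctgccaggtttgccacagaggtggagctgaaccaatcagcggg
The ATF3 stretch lies at chr1:212565170-212565269 on the plus strand, with the core 191 bases before the start. The ASNS stretch lies at chr7:97872423-97872522 on the minus strand, with the core 68 bases before the start. The CHAC1 stretch lies at chr15:40953221-40953315 on the plus strand, with the core 209 bases before the start on the opposite strand, so that its letters read TTGCATCA. The full cAMP response element, TGACGTCA, was in none of the 10 genes and in 2.25% of all genes. A match is a run of letters, and binding was not measured. As given below, none of the 3 genes with a core differed between the groups at an adjusted p under 0.05. ASNS was estimated lower in siTRPC1 cells. The 95% intervals of ATF3 (-0.21 to 0.13) and CHAC1 (-0.25 to 0.48) included 0. Whether the 3 genes share a direction therefore cannot be read from these estimates.

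For a given probe on these bead arrays, a brighter signal stands for more of its transcript. Different probes of the same gene can differ widely in brightness, so levels are not compared between probes as amounts. Intensities were background-corrected and quantile-normalized together with the neqc function of limma, and all values below are on that log2 scale. A log2FC is the mean of the siTRPC1 arrays minus the mean of the control arrays, given with its standard error (SE), and p-values were adjusted over all 12902 tested probes with the Benjamini-Hochberg method. A probe was called changed at an adjusted p under 0.05. Mean intensity was 457.5 to 641.6 per control array and 565.9 to 687.9 per siTRPC1 array, and 12292 to 13462 and 12435 to 13285 probes were detected. The dimmest of the 12 were control arrays 1 and 2, with means of 479.7 and 457.5. Within each group, arrays 1 and 2, 3 and 4, and 5 and 6 are taken as adjoining pairs, and each of the 12 arrays correlated best, among those of its group, with its partner in the pair. No slide or batch is stated. The exact permutation p-values below count every array as independent, which this resemblance leaves in doubt, so they may be too small.

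TRPC1, the silenced gene, had a log2 value of 8.82 ± 0.12 in control and 8.63 ± 0.13 in siTRPC1 arrays (SD, n = 6 each), a log2FC of -0.19 (SE 0.09, limma adjusted p = 0.302, exact two-sided permutation p = 0.0303). The control arrays read 8.77, 8.74, 8.79, 8.75, 9.05 and 8.82 and the siTRPC1 arrays 8.73, 8.56, 8.5, 8.57, 8.85 and 8.6. The groups thus overlapped, with siTRPC1 array 5 above all but 1 control array. The other 5 siTRPC1 arrays lay below every control array. The study left out control array 5 and siTRPC1 array 5, because TRPC1 values of array and PCR correlated poorly there. On its remaining arrays and by PCR it reported significantly lower TRPC1 RNA, with lower TRPC1 protein by western blot. The hepatocyte identity of the cells was plain from ALB (albumin), at 15.04 and 14.95, and AFP (alpha-fetoprotein), at 14.81 and 14.83 in control and siTRPC1 arrays. Of 12 markers of other cell types 3 passed the detection filter, CD14, CD68 and PECAM1, with control means of 7.45, 11.08 and 10.99. None of these differed between the groups by the call.

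In the whole fit 209 probes (1.62%) were called, 124 higher and 85 lower in siTRPC1 cells. When the arrays were centred on their medians instead of quantile-normalized, the split was 96 higher and 112 lower. Of the 10 genes, each taken by its brightest tested probe, none was called in either direction by limma, against the 1.62% of all probes. At an unadjusted p under 0.05, which 17.1% of all tested probes reached, there were 3 of the 10, TRIB3, DDIT3 and ASNS. All 3 were lower in siTRPC1 cells, a direction in which 7.82% of all tested probes passed that threshold. Of the 10 estimates 8 lay below 0 and 2 above, with a median log2FC of -0.06, where 51.2% of all tested probes lay below 0 and the median was 0.00. Rank Product on all probes called none of the 16 member probes, and the methods' t-test called none after Benjamini-Hochberg adjustment and the same number, 3, without it.

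**Figure D1:**
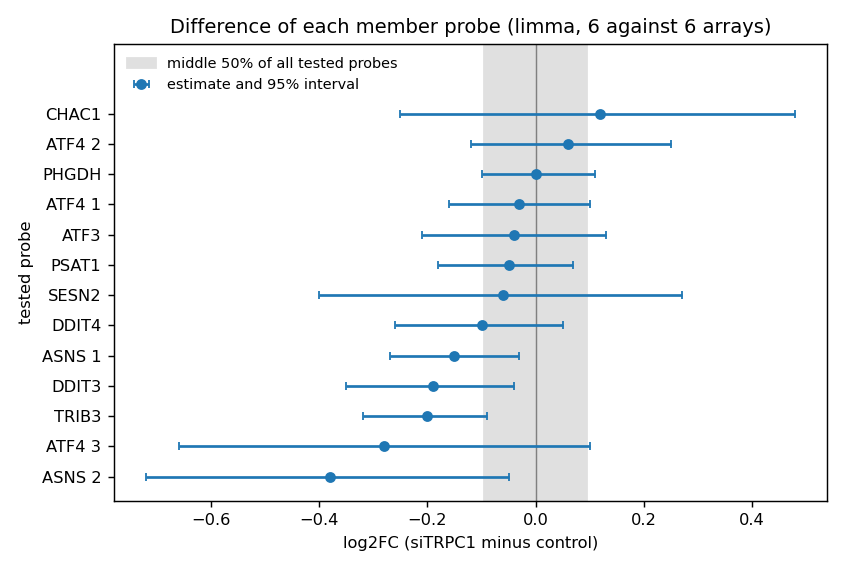
Difference of each of the 13 tested member probes (vertical axis) as log2FC, siTRPC1 minus control (horizontal axis); points are limma estimates, bars 95% intervals and the grey band the middle 50% of all tested probes, from -0.10 to 0.10. Only the intervals of TRIB3, DDIT3 and both ASNS probes lie wholly below 0, and those of CHAC1, SESN2, the dimmest ATF4 and the dimmer ASNS probe are the widest.

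ATF4 itself was measured by 3 tested probes, none of which was called. On the brightest, control arrays ranged from 13.94 to 14.28 (median 14.04) and siTRPC1 arrays from 13.88 to 14.16 (median 14.04). The groups overlapped almost fully, and the log2FC of -0.03 (SE 0.06, adjusted p = 0.861) had a 95% interval of -0.16 to 0.10. The second probe ranged from 10.28 to 10.92 in control and from 10.48 to 10.67 in siTRPC1 arrays, with a log2FC of 0.06 (adjusted p = 0.764). The dimmest probe was detected on 11 of 12 arrays and ranged from 7.28 to 8.09 in control and from 6.65 to 7.93 in siTRPC1 arrays. Its log2FC was -0.28 (SE 0.18, adjusted p = 0.450), and its lowest value was that of siTRPC1 array 5, the array on which it was not detected. The estimates of the 3 probes thus differed in sign, each with an interval that included 0. Without control arrays 1 and 2, which were the highest of the control group on all 3 probes, the estimate of the brightest probe turned to 0.05.

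Of the other transcription factors, ATF3 and DDIT3, the first was nearly level and the second was estimated lower. ATF3 is induced by ATF4 and many other stress signals and acts mostly as a repressor. It ranged from 10.86 to 11.23 (median 11.07) in control and from 10.76 to 11.24 (median 11.07) in siTRPC1 arrays, with a log2FC of -0.04 (SE 0.08, interval -0.21 to 0.13, adjusted p = 0.850). Its 2 other probes were detected on 0 of 12 arrays and were not tested. DDIT3 encodes CHOP, which acts downstream of ATF4 and promotes cell death when stress is prolonged. Control arrays ranged from 10.50 to 10.80 (median 10.73) and siTRPC1 arrays from 10.26 to 10.57 (median 10.50). All 6 siTRPC1 arrays lay below the control median, but the groups overlapped, since control arrays 1 and 6 read 10.50 and 10.53. The log2FC was -0.19 (SE 0.07, interval -0.35 to -0.04), with an adjusted p of 0.170 and an exact permutation p of 0.0281. The lowest value was that of siTRPC1 array 5, and on the 10 arrays that the study analysed, without that array and control array 5, the log2FC was -0.13.

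TRIB3, a pseudokinase that binds ATF4 and CHOP and restrains them, is a target of both, and it was the member with the lowest p. Its values were 11.94, 12.08, 11.99, 11.99, 11.93 and 12.04 in the control arrays and 11.89, 11.81, 11.86, 11.73, 11.69 and 11.78 in the siTRPC1 arrays. Every siTRPC1 array lay below every control array, which held for 1 of the 10 members and for 1.02% of all tested probes. The gap was narrow, 11.89 against 11.93. The log2FC was -0.20 (SE 0.06, interval -0.32 to -0.09), a difference of -13.2% on the linear scale. The adjusted p was 0.0645 by limma, short of the threshold. The exact permutation p was 0.00216, the smallest that 6 against 6 arrays allow when each array is counted as independent. With the arrays centred on their medians the log2FC was -0.24 and passed (adjusted p = 0.0355), while with adjoining arrays as a random block the adjusted p was 0.229. Median centring also lowered the estimates of the bright markers ALB, from -0.09 to -0.39, and AFP, from 0.02 to -0.26. Before normalization, intensities of the 2 groups overlapped, at 2858 to 4389.6 in control and 3280.8 to 4252.9 in siTRPC1 arrays, and the lowest 2 were those of control arrays 1 and 2. Without these 2 arrays the normalized log2FC was still -0.20 (adjusted p = 0.10).

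**Figure D2:**
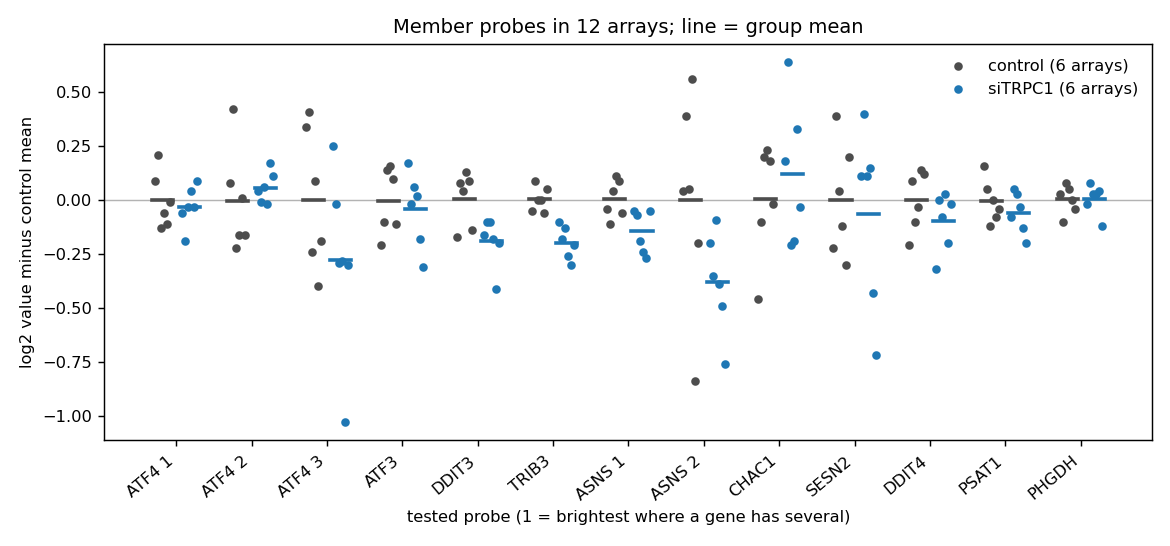
Log2 value of each tested member probe in each array minus its control mean (vertical axis), with 6 control arrays (grey) and 6 siTRPC1 arrays (blue) per probe and a line at each group mean. TRIB3 is the probe on which no siTRPC1 array reaches the control arrays, and the dimmer ASNS probe, the dimmest ATF4 probe, CHAC1 and SESN2 show the widest spread.

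The amino acid enzymes of the set fell into 1 gene with lower estimates, ASNS, and 2 that were close to level, PSAT1 and PHGDH. ASNS makes asparagine from aspartate and glutamine and is the textbook target of the amino acid response. On its brighter probe control arrays ranged from 12.59 to 12.81 (median 12.70) and siTRPC1 arrays from 12.43 to 12.65 (median 12.57). All 6 siTRPC1 arrays lay below the control median and 3 below every control array, and the log2FC was -0.15 (SE 0.06, interval -0.27 to -0.03, adjusted p = 0.194, exact permutation p = 0.0281). The dimmer ASNS probe ranged from 8.61 to 10.01 in control and from 8.69 to 9.36 in siTRPC1 arrays, with a log2FC of -0.38 (SE 0.16, interval -0.72 to -0.05, adjusted p = 0.223). The exact permutation p of the dimmer probe was 0.119, and its estimate depended on single control arrays. Without control array 5, its lowest value, the log2FC was -0.55 and the probe was called (adjusted p = 0.0240). Without control array 4, its highest value, the log2FC was -0.27 (adjusted p = 0.386). Without control arrays 1 and 2 it was also -0.27 (adjusted p = 0.446). On the 10 arrays analysed by the study the log2FC was -0.53 for the dimmer and -0.11 for the brighter probe, with adjusted p of 0.0513 and 0.425. Both probes of ASNS thus had lower estimates with and without these arrays, but their sizes differed.

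PSAT1 and PHGDH catalyse successive steps of serine synthesis from a glycolytic intermediate, PHGDH the first. PSAT1 ranged from 12.69 to 12.97 in control and from 12.61 to 12.86 in siTRPC1 arrays, with a log2FC of -0.05 (SE 0.06, interval -0.18 to 0.07, adjusted p = 0.695). A further PSAT1 probe was detected on 0 of 12 arrays. PHGDH ranged from 13.79 to 13.97 and from 13.77 to 13.97, and its log2FC was 0.00 (SE 0.05, interval -0.10 to 0.11, adjusted p = 0.983), the narrowest interval of the set. Its estimate depended on the scaling, at -0.12 with the arrays centred on their medians (adjusted p = 0.333).

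CHAC1, SESN2 and DDIT4 stand for the effector arm, which degrades glutathione (CHAC1) and restrains mTORC1, the kinase complex that couples amino acids to growth (SESN2 and DDIT4). CHAC1 was dim and was detected on 4 of 6 arrays in each group, with values of 6.52 to 7.21 in control and 6.77 to 7.62 in siTRPC1 arrays. Its log2FC was 0.12 (SE 0.18), the highest estimate of the 10, with an interval of -0.25 to 0.48 and an adjusted p of 0.784. Without control arrays 1 and 2 the estimate was -0.03, and without siTRPC1 array 2, its highest value, 0.01.
SESN2, which also senses leucine, ranged from 7.85 to 8.54 in control and from 7.43 to 8.55 in siTRPC1 arrays, with a log2FC of -0.06 (SE 0.16, adjusted p = 0.882). Its lowest 2 values were those of siTRPC1 arrays 5 and 6 (7.72 and 7.43), and without array 6 the estimate was 0.07. DDIT4 ranged from 10.88 to 11.23 (median 11.12) and from 10.77 to 11.12 (median 11.04). All 6 siTRPC1 arrays lay at or below the control median, and the log2FC was -0.10 (SE 0.07, interval -0.26 to 0.05, adjusted p = 0.505). Without siTRPC1 array 1, its lowest value, the log2FC was -0.06, and on the 10 arrays analysed by the study it was -0.055.

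Array by array, the mean deviation of the 10 members from their own 12-array means ran from -0.07 to 0.09 in control arrays (median 0.05) and from -0.14 to 0.10 in siTRPC1 arrays (median -0.02). The lowest 2 were siTRPC1 arrays 5 and 6 (-0.13 and -0.14), and the highest was siTRPC1 array 2 (0.10), so the groups overlapped. For TRIB3, DDIT3 and ASNS alone, a choice made from their values and therefore without a test, the siTRPC1 arrays lay at -0.24 to -0.02 and the control arrays at 0.00 to 0.16. Within the groups the correlations between members varied widely, and none were computed for other probes as a reference. Across the 45 pairs of members, the deviations from the group means over the same 12 arrays had a median correlation of 0.11. The highest was 0.65, for ATF3 with DDIT3, and the lowest was -0.72, for ATF4 with CHAC1, a dim probe detected on 8 of 12 arrays. These are descriptions of 12 arrays that share a normalization and in which the adjoining pairs of a group resemble each other.

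**Figure D3:**
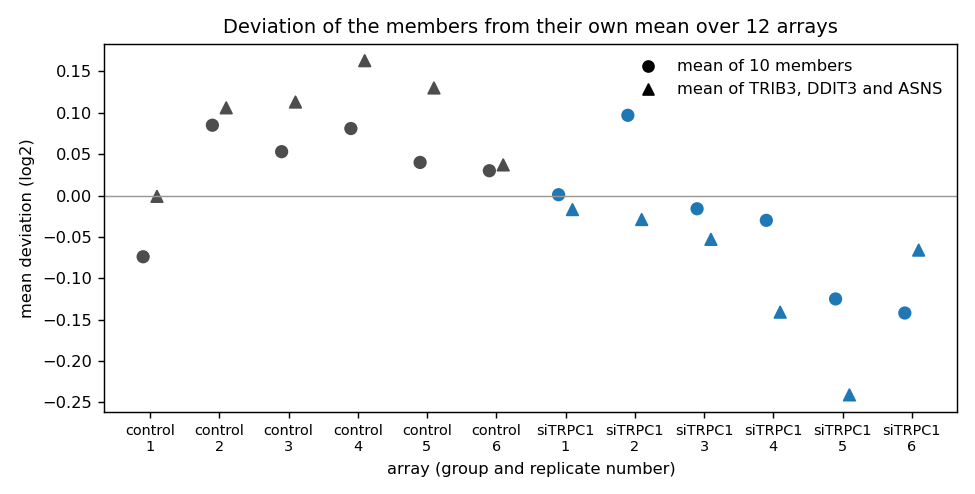
Mean deviation of all 10 members (circles) and of TRIB3, DDIT3 and ASNS (triangles) from their 12-array means on the log2 scale (vertical axis) in each array (horizontal axis), with control in grey and siTRPC1 in blue. Circles of the 2 groups overlap, from -0.07 to 0.09 in control and from -0.14 to 0.10 in siTRPC1, whereas the triangles of the 3 genes, selected from their values, do not.

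The wider pathway was described with 7 gene lists of 100 genes in all, 94 with a probe and 78 tested. The lists were written with earlier results of these data known, so their counts and medians are descriptions only. Of the 78, 1 was called, SQSTM1, which was lower (0.659% of all tested probes were called lower), and none was called higher (0.961% of all). At an unadjusted p under 0.05 there were 5 higher and 12 lower, where 9.29% of all tested probes were higher and 7.82% lower at that threshold. The median log2FC of the 78 genes was -0.045.

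Upstream of ATF4, none of 14 tested genes for eIF2α kinases, subunits of eIF2 and eIF2B and eIF2α phosphatases was called, with a median of 0.03. EIF2AK1, the kinase HRI that senses haem and mitochondrial stress, was 12.72 ± 0.14 in control and 12.93 ± 0.06 in siTRPC1 arrays (SD, n = 6 each), a log2FC of 0.21 with a limma adjusted p of 0.0869. It passed the threshold without control array 5 (adjusted p = 0.0486) or without control array 6 (adjusted p = 0.0460), whose values of 12.88 and 12.90 were the highest controls. EIF2AK3, the kinase PERK of the endoplasmic reticulum, had a log2FC of -0.30 (SE 0.14, adjusted p = 0.279). That estimate depended on control arrays 1 and 2, its highest values (9.03 and 8.74), and was -0.19 without array 1 and -0.10 without both (adjusted p = 0.783). Neither kinase was called on all 12 arrays.

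Among basic leucine zipper partners and regulators of ATF4, none of 10 tested was called. ATF5, which like ATF4 is translated more when eIF2α is phosphorylated, had a log2FC of 0.22 (SE 0.09, adjusted p = 0.230), and CEBPB, a partner on the composite element, -0.14 (SE 0.07, adjusted p = 0.269). Without control arrays 1 and 2, its lowest values (10.45 and 10.34), ATF5 was 0.07 (adjusted p = 0.718). Of the paralogs of the members 3 of 6 were tested. SESN1, a p53-regulated relative of SESN2, ranged from 8.60 to 8.91 in control and from 8.77 to 9.04 in siTRPC1 arrays, a log2FC of 0.22 (SE 0.09, adjusted p = 0.206). SESN3 had 0.11 (SE 0.18, adjusted p = 0.806) and 0.00 without control arrays 1 and 2, and TRIB1, a pseudokinase of the TRIB3 family, 0.00 (SE 0.06, adjusted p = 0.990). None of the 3 passed.

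Amino acid transporters had 10 of 12 tested and 0 called, and the median was -0.06. SLC7A5, the light chain of the leucine transporter LAT1, had a log2FC of 0.18 (SE 0.07, adjusted p = 0.223) and SLC6A9, a glycine transporter, -0.26 (SE 0.13, adjusted p = 0.295). Without control arrays 1 and 2, its lowest values (12.74 and 12.67), SLC7A5 was 0.06 (adjusted p = 0.712). SLC7A11, the cystine transporter that ATF4 is known to induce, did not pass the detection filter. Enzymes of serine, glycine, one-carbon, proline and transsulfuration metabolism had 10 of 12 tested and 0 called. Their lowest p values had opposite signs. MTHFD2, a mitochondrial folate enzyme and ATF4 target, ranged from 10.57 to 10.79 in control and from 10.73 to 11.12 in siTRPC1 arrays, a log2FC of 0.24 (SE 0.07, adjusted p = 0.0857). MTHFD1L, which acts further along the same mitochondrial route, had -0.20 (SE 0.07, adjusted p = 0.139). Without control arrays 1 and 2, MTHFD2 was called (0.30, adjusted p = 0.0393).

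Cytosolic aminoacyl-tRNA synthetases, many of them ATF4 targets, had 18 of 20 tested and 0 called. The estimates were below 0 for 12 and above 0 for 6, where 51.2% of all tested probes lay below 0. Their median was -0.05 and their range -0.22 to 0.09. WARS1, for tryptophan, ranged from 10.98 to 11.14 in control and from 10.67 to 10.95 in siTRPC1 arrays. The groups did not overlap, which held with siTRPC1 lower for 1.02% of all tested probes. The WARS1 log2FC was -0.22 (SE 0.06, adjusted p = 0.0852). A second WARS1 probe had -0.05. EPRS1, for glutamate and proline, had -0.19 (SE 0.07, adjusted p = 0.165), and -0.10 without control arrays 1 and 2 (adjusted p = 0.473), which were its highest values.

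The list of other reported ATF4 or CHOP targets had the lowest median of the 7, -0.14, with 15 of 20 tested, and held the single called gene. SQSTM1 encodes p62, an autophagy receptor that is also induced by NRF2. It read 12.60, 12.96, 13.08, 12.53, 12.59 and 12.57 in the control arrays and 12.24, 12.49, 12.17, 12.19, 11.87 and 12.09 in the siTRPC1 arrays. The groups did not overlap, which held with siTRPC1 lower for 1.02% of all tested probes. The log2FC was -0.55 (SE 0.10, interval -0.74 to -0.35, adjusted p = 0.00516 by limma). SQSTM1 stayed called with adjoining arrays as a random block (adjusted p = 0.0203), but not by the methods' t-test after adjustment (0.0890) or by Rank Product. STC2, a secreted glycoprotein induced by endoplasmic reticulum stress, ranged from 10.76 to 10.96 and from 10.47 to 10.71, again without overlap, with a log2FC of -0.22 (SE 0.06, adjusted p = 0.0793). GDF15, a stress-induced cytokine, had -0.33 (SE 0.12, adjusted p = 0.153). In the control group its lowest 2 values were those of arrays 1 and 2 (11.26 and 10.98), and without both arrays its log2FC was -0.52 and passed (adjusted p = 0.00203), as it did without control array 2 alone (-0.43, adjusted p = 0.0285).

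**Figure D4:**
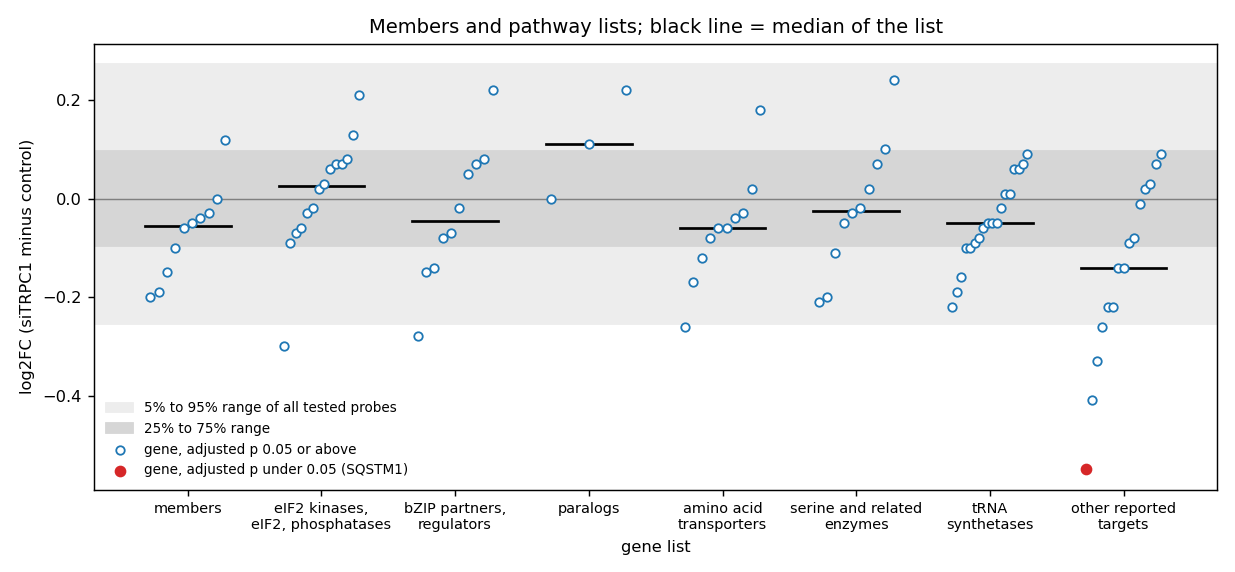
Log2FC, siTRPC1 minus control (vertical axis), of each tested gene of the set and of the 7 pathway lists (horizontal axis), by its brightest tested probe; black lines are list medians, grey bands the 25% to 75% and the 5% to 95% range of all tested probes and the red point the only called gene, SQSTM1 (-0.55). List medians run from -0.14 for other reported targets to 0.11 for the 3 tested paralogs, and most genes lie within the wider band of -0.26 to 0.27.

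Across the other processing settings TRIB3, DDIT3 and ASNS had estimates below 0 throughout, at -0.24 to -0.18, -0.23 to -0.13 and, with the median of its probes among the settings, -0.27 to -0.11. The adjusted p-values of DDIT3 and of the brighter ASNS probe did not reach the threshold in any setting with an adjustment, and TRIB3 reached it in 1.

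**Figure D5:**
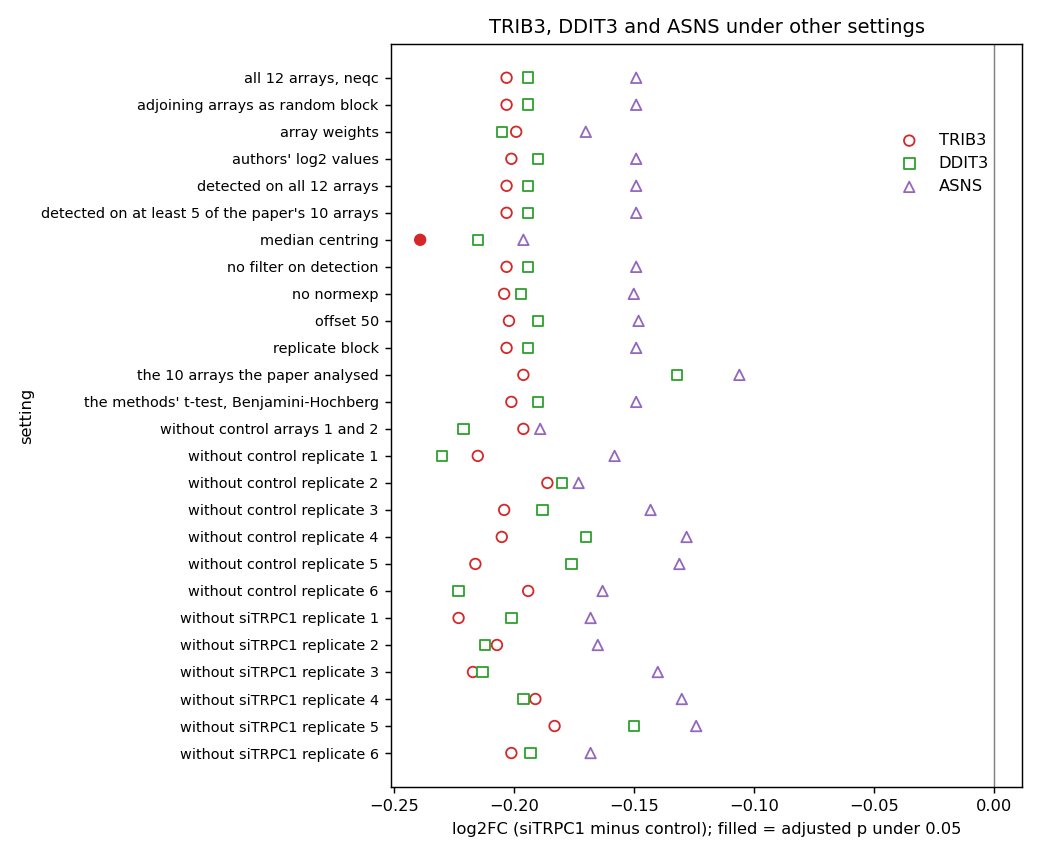
Log2FC of TRIB3 (circles), DDIT3 (squares) and the brighter ASNS probe (triangles), siTRPC1 minus control (horizontal axis), in each processing setting or with 1 array left out (vertical axis); filled symbols have an adjusted p under 0.05. All estimates lie below 0, and the single filled symbol is TRIB3 with arrays centred on their medians (-0.24).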

How the data were processed

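Huh7 RNA of 6 control and 6 siTRPC1 samples was measured on HumanHT-12 v3 bead arrays, each with 500 ng of total RNA amplified. The deposited intensity values were background-subtracted by the authors in GenomeStudio and, per the file headers, not normalized between arrays, and each has a deposited detection p-value against the negative controls of its array. The deposited log2 values are the authors' lumi output (version not given in the sources used here). They were rebuilt from the intensities by a shift, log2 and quantile normalization to within 0.014, and all columns have a median of 6.16.

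Intensities were processed with neqc (normexp from detection p, offset 16, quantile over 12 arrays), and probes detected at p under 0.01 in 6 or more of the 12 arrays were tested with lmFit and eBayes with trend in limma 3.58.1 (R 4.3.3), tested on simulated data beforehand, with condition as the single term. Adjusted p is Benjamini-Hochberg over all tested probes by limma unless another test is named. Exact two-sided permutation tests used all 924 splits of 6 and 6 arrays, with 0.0022 as the smallest p. Rank Product was written anew with 100 permutations. The number of arrays limits the precision.

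Gene names came from the platform annotation, in which 28098 probes had 1 gene, 13 several and 20692 none. A gene was taken by its tested probe with the highest mean. List genes not matched to a probe included EIF2B3, GPT2, CARS1, HERPUD1, ADM2 and HNF4A. Named were the 10 members with all probes, TRPC1, the called genes of each list and 2 further genes with the lowest p, the tested paralogs and the brightest 2 hepatocyte markers. Members, lists and alternatives were chosen with earlier results of these data known.

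The labels do not say whether the sample numbers pair the groups, so the main fit was unpaired. Correlations of same-numbered arrays were -0.07 to 0.03, and 0 of 12 arrays correlated best with its own number. Alternatives were the 10 arrays of the study, no control arrays 1 and 2, the authors' log2 values, normalization, offset, filters, array weights, blocks, the methods' t-test, Rank Product and each array left out.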

Additional observations from a re-analysis of the deposited data

Results flagged for a closer look

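Of 66 groups of 6 values examined, 3 held 1 array far from the other 5 by Dixon's ratio at its 95% critical value, a share that chance alone gives in about 1 of 20 groups. On the DDIT3 probe siTRPC1 array 5 was the lowest at 10.26, with the nearest array at 10.47. On the STC2 probe siTRPC1 array 6 was the lowest at 10.47, with the nearest at 10.65. On the TRPC1 probe control array 5 was the highest at 9.05, with the nearest at 8.82.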

How the results depend on the processing

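The count of called probes, 209 in the main setting, was 48 with no filter on detection, 43 with adjoining arrays as a random block (correlation 0.313), 82 by the methods' t-test after adjustment and 2025 before it, and 7 by Rank Product. It was 214 with the replicate number as a block, which changed no call among the genes named. Leaving out 1 array gave 98 to 276, with 125 without control array 1 and 110, 98, 131 and 123 without siTRPC1 arrays 3, 4, 5 and 6. Of the 10 members, each by its brightest tested probe, 1 (TRIB3) was called with median centring and 3 by the unadjusted t-test. In every other setting run 0 were called, which includes each array left out and the replicate block. The dimmer ASNS probe, outside this count, was called without control array 5. The pathway count of 1 was 3 without control arrays 1 and 2 and 3 with array weights (GDF15 and MTHFD2 besides SQSTM1 in both), 2 with median centring (STC2 besides SQSTM1), 0 by the adjusted t-test, 11 by the unadjusted one and 0 by Rank Product, and 1 to 2 with 1 array left out (2 without control array 2, 5 or 6).

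Small estimates changed sign. On the 10 arrays of the study ATF3 was 0.006, PHGDH -0.004 and TRIB1 0.005. Without control arrays 1 and 2 ATF4 was 0.048, CHAC1 -0.026, PSAT1 0.000, PHGDH -0.015 and SESN3 -0.003. Median centring gave PHGDH -0.115 and AFP -0.264, and array weights gave ATF4 0.008 and PHGDH -0.004. With 1 array left out the ranges were -0.054 to 0.014 for ATF4, -0.082 to 0.014 for ATF3, -0.156 to 0.067 for SESN2, -0.018 to 0.027 for PHGDH, -0.028 to 0.025 for TRIB1 and -0.011 to 0.064 for AFP. The cause was not tested.

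CHAC1, SESN2 and the dimmest ATF4 probe lie near background, where the intervals are wide. Over all results, 835 comparisons of an alternative with the main setting kept direction and side of the threshold or a similar count, 21 passed it only in the alternative, 7 lost it, 33 changed sign and 21 were other counts.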

Other observations

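Hepatocyte products were examined as a check of cell identity, with 11 of 12 markers tested and 9 estimates above 0. Of all tested probes 51.2% lay below 0 and 0.961% were called higher. The only one called was TTR (transthyretin), named here because it was called, after its values were seen. It read 14.24 to 14.50 in control and 14.58 to 14.72 in siTRPC1 arrays without overlap, a log2FC of 0.24 (SE 0.05, limma adjusted p = 0.0179). Not counting the unadjusted t-test, TTR kept the call in 21 of 26 alternatives. Centred on array medians it was 0.08 (adjusted p = 0.593). Among the other losses were those without control array 1 (0.21, adjusted p = 0.0523) and with adjoining arrays as a random block (adjusted p = 0.0955). Of the other tested markers, each by its brightest tested probe, AHSG had 0.19, FGB 0.15, SERPINA1 0.13 and FGA 0.12. TF had 0.04, APOA1 and APOB 0.03, AFP 0.02, APOH -0.08 and ALB -0.09. The limma adjusted p of all these ran from 0.225 for FGB to 0.898 for AFP. Dimmer SERPINA1 probes had 0.11 (adjusted p = 0.283) and, without overlap of the groups, 0.41 (adjusted p = 0.0622). The share of all tested probes without overlap and with siTRPC1 higher was not determined.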
